A study of Mus musculus with 2 samples.

Results

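Transcription factors of the cranial mesenchyme and the neural crest, *Alx1*, *Alx4*, *Prrx1*, *Prrx2*, *Twist1*, *Foxc1*, *Foxc2*, *Foxd3* and *Tfap2a*, were followed in the embryonic brain of luxoid (*lu*) and wild type mice at E10.5. The 9 genes were listed by name, by a rule that uses no measured value but with earlier results of these data known, and they make up 9 of the 37074 gene names and 16 of the 56605 probes on the array. RNA was compared on 2 Agilent arrays. On each array, Cy3 marked wild type RNA (C57BL/6) and Cy5 marked *Plzf* lu/lu RNA (strain named luxoid in the labels). The luxoid allele arose spontaneously: a point mutation early in the coding sequence of *Plzf* (also *Zbtb16*) truncates the zinc finger protein, and the animals carry it in the germ line. The labels call the tissue brain and the 2 arrays biological replicates, and the methods name forebrain and midbrain. The number of embryos behind each sample was not stated. Neither array had its dyes swapped, so an effect of the dye on a probe and an effect of the genotype cannot be told apart. Both arrays lay on 1 slide.

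Neural crest cells leave the dorsal edge of the neural tube and populate the head, where, together with mesoderm, they form the mesenchyme that surrounds the early brain and later builds the skull, the meninges and the facial skeleton. *Foxd3* and *Tfap2a* act in the specification of the crest, and *Tfap2a* is also strongly expressed in the surface ectoderm. *Twist1*, *Alx1*, *Alx4*, *Prrx1* and *Prrx2* mark the mesenchyme itself, while *Foxc1* and *Foxc2* serve the mesoderm- and crest-derived mesenchyme, the meninges and the vessels. These cells border the neuroepithelium of the brain.

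The probes are 60 bases long. The first 30 bases, 5′ to 3′ as deposited, are printed for the probes on which the results turn, namely the probe of *Foxc1*, the informative probes of *Prrx1* and the brighter probes of *Tfap2a*, since their ratios differ between arrays or between probes of 1 gene or lie below 1 on both arrays. Positions (mm9) were read from the array's deposited annotation, and whether a probe lies in a coding or a noncoding exon was not analysed here. No run of 20 bases in any of the 16 probes was found in a probe of another gene.
*Prrx1*, A_51_P209778, chr1:165187974-165188033, minus strand: agcgagccatgctggccaataaaaacgctt
*Prrx1*, A_55_P2131920, chr1:165175375-165175434, minus strand: cacgtgggaggttaaattaaaccagaagta
*Foxc1*, A_55_P1967761, chr13:31902423-31902482, plus strand: cttaagcagtaattgctgttgcttgttgtc
*Tfap2a*, A_55_P1964812, chr13:40811044-40811103, minus strand: ctatgcctgtcaatgtatcatagtcctttg
*Tfap2a*, A_55_P2735145, chr13:40811568-40811627, minus strand: ccccgtggtagcatgttaaacgattataat

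Signals are processed intensities, background-subtracted and dye-normalized by the scanner software. A gene passed when its signal was above 200 at a signal-to-noise ratio of at least 5 in each of the 4 channels, which 10600 genes did. The *Zbtb16* probe, which checks the labels, read 433 and 546 in wild type and 172 and 211 in *Plzf* lu/lu on arrays 1 and 2, log2 ratios of -1.33 and -1.37. The forebrain and midbrain genes *Sox2* and *Otx2* were bright in all channels. The probe of *En1*, a midbrain and hindbrain gene, gave no more than 3.86 in any channel. This probe alone does not show whether midbrain was present, and the paper lists the related gene *En2* among its changed genes. Over all passing genes, the log2 ratio of *Plzf* lu/lu over wild type had a median of 0.0195 on array 1 and -0.00467 on array 2, and its SD between the arrays had a median of 0.0844. Across these genes the ratios of the arrays correlated at a Pearson r of 0.553 and a Spearman rho of 0.601, a description over genes that share the same RNA. The ratio was also lower for probes of higher GC content (Spearman rho of -0.334 across genes).

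Of the 9 factors, 6 passed, namely *Alx4*, *Prrx1*, *Prrx2*, *Twist1*, *Foxc1* and *Tfap2a*. On both arrays alike, none of the 6 was beyond 1.3-fold in either direction, compared with 2.58% of all passing genes that were higher and 0.736% that were lower in *Plzf* lu/lu (274 and 78 genes; 6731 and 4 under normexp with median centring over all probes, which moved the median passing gene to 0.56 on the log2 scale). The 6 log2 ratios, averaged over the arrays, had a median of 0.07 and ranged from -0.28 to 0.58. Limma called 0 of the 6 at an adjusted p under 0.05, where it called 0.0283% of all passing genes higher and 0% lower. At an unadjusted p under 0.05 it called 2 of the 6, *Foxc1* and *Tfap2a*, against 27.8% of all passing genes. Of the 3 factors that did not pass, *Alx1* was too dim in the wild type channels, *Foxc2* was too dim on array 2, and *Foxd3* lay close to background.

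**Figure D1:**
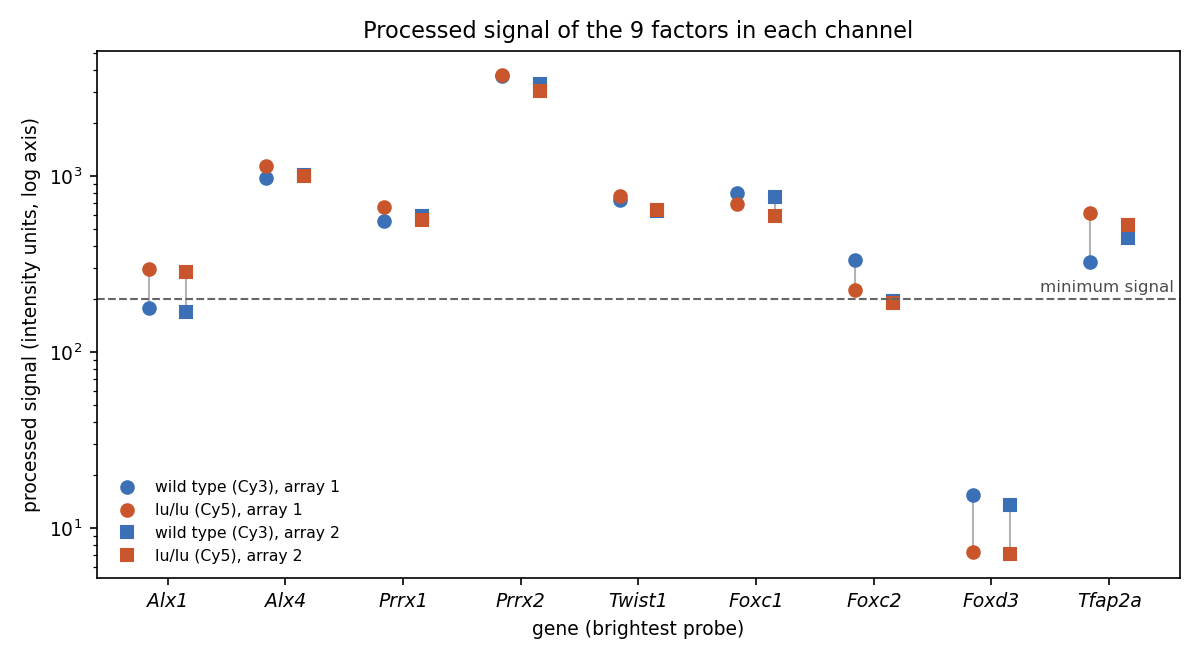
Processed signal of the brightest probe of each of the 9 factors (vertical axis, intensity units, log axis) in the wild type (blue) and *Plzf* lu/lu (orange) channels of array 1 (circles) and array 2 (squares), with the minimum signal of 200 dashed. *Alx1* lies below 200 in both wild type channels and above it in both *Plzf* lu/lu channels, and *Foxd3* is at 15.4 or less in all 4; levels of different probes are not comparable.

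*Alx1*, a paired-type homeobox gene of the frontonasal and periocular mesenchyme, had the largest ratio repeated on both arrays among the 8 factors well above background. Its signal was 177 and 169 in wild type and 295 and 285 in *Plzf* lu/lu on arrays 1 and 2. Both mutant values lay above both wild type values. The ratio was 1.67 on array 1 and 1.69 on array 2, a mean log2 ratio of 0.75 ± 0.01 (SD, n = 2). The error of the spot, combined from the signal errors that the scanner software gives both channels, was larger, at 0.205 on the log2 scale for each array.

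Because its wild type signal stayed under 200, *Alx1* entered the fit only under the wider filters. When 1 passing channel per array was enough, *Alx1* was among the genes higher beyond 1.3-fold, as were 2.78% of the 11079 genes tested (0.867% were lower), and its adjusted p in limma was 0.0665. It entered this set only through the *Plzf* lu/lu channels, in which it was higher, so the filter and the ratio are not independent and neither value supports the difference. Among the 23283 genes well above background in all channels it was again beyond 1.3-fold, as were 2.52% in that direction (2.07% were lower), and its adjusted p was 0.252. It was the only one of 8 factors in that set beyond 1.3-fold on both arrays. With the GC trend removed, its log2 ratio was 0.71.

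*Alx4*, a paralog of *Alx1* in the same mesenchyme, had ratios closer to 1. Its signal was 971 and 1018 in wild type and 1144 and 1007 in *Plzf* lu/lu, so that the genotypes overlapped. On the log2 scale the ratio of *Alx4* was 0.24 on array 1 and -0.02 on the other, with a mean of 0.11 ± 0.09 (SE, limma; adjusted p = 0.460). *Alx4* was thus above 1 on array 1 and close to 1 on array 2, while *Alx1* stood at 1.67 or more on both. A difference between *Alx1* and its paralog was not tested, as levels and ratios of different probes have different errors.

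*Prrx1* and *Prrx2* encode paired-related homeobox proteins that act together in craniofacial and limb mesenchyme. The brightest *Prrx1* probe read 553 and 589 in wild type and 668 and 562 in *Plzf* lu/lu. The *Plzf* lu/lu values lay on either side of the wild type values. Its log2 ratio was 0.27 on array 1 and -0.07 on array 2, a mean of 0.10 ± 0.10 (SE, limma; adjusted p = 0.540). The *Prrx1* probe further downstream, annotated to another transcript of the gene, read 299 and 338 in wild type and 485 and 346 in *Plzf* lu/lu. It showed the same split more widely, with ratios of 1.62 on array 1 and 1.02 on array 2. The most upstream *Prrx1* probe, at no more than 2.75 in any channel, did not rise above background and carries no ratio.

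The probes of *Prrx2* gave ratios close to 1. The brightest of them read 3690 and 3328 in wild type and 3767 and 3041 in *Plzf* lu/lu. The log2 ratio was 0.03 and -0.13, a mean of -0.05 ± 0.08 (SE, limma; adjusted p = 0.711). The other probes of the gene had mean log2 ratios of 0.08 and -0.01, and all 6 values of the 3 probes lay between -0.13 and 0.12. The 3 probes therefore bracketed a ratio of 1 and their sign was not settled.

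*Twist1*, a basic helix-loop-helix factor needed in the cranial mesenchyme for neural tube closure and skull formation, read 730 and 636 in wild type and 769 and 644 in *Plzf* lu/lu. The difference between the arrays was larger than that between the genotypes, at 0.20 on the log2 scale for wild type and 0.26 for *Plzf* lu/lu. The log2 ratio was 0.07 and 0.02, a mean of 0.05 ± 0.08 (SE, limma; adjusted p = 0.712). With the GC trend removed the mean turned to -0.03. Its paralog *Twist2* had log2 ratios of -0.23 on array 1 and 0.09 on array 2.

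**Figure D2:**
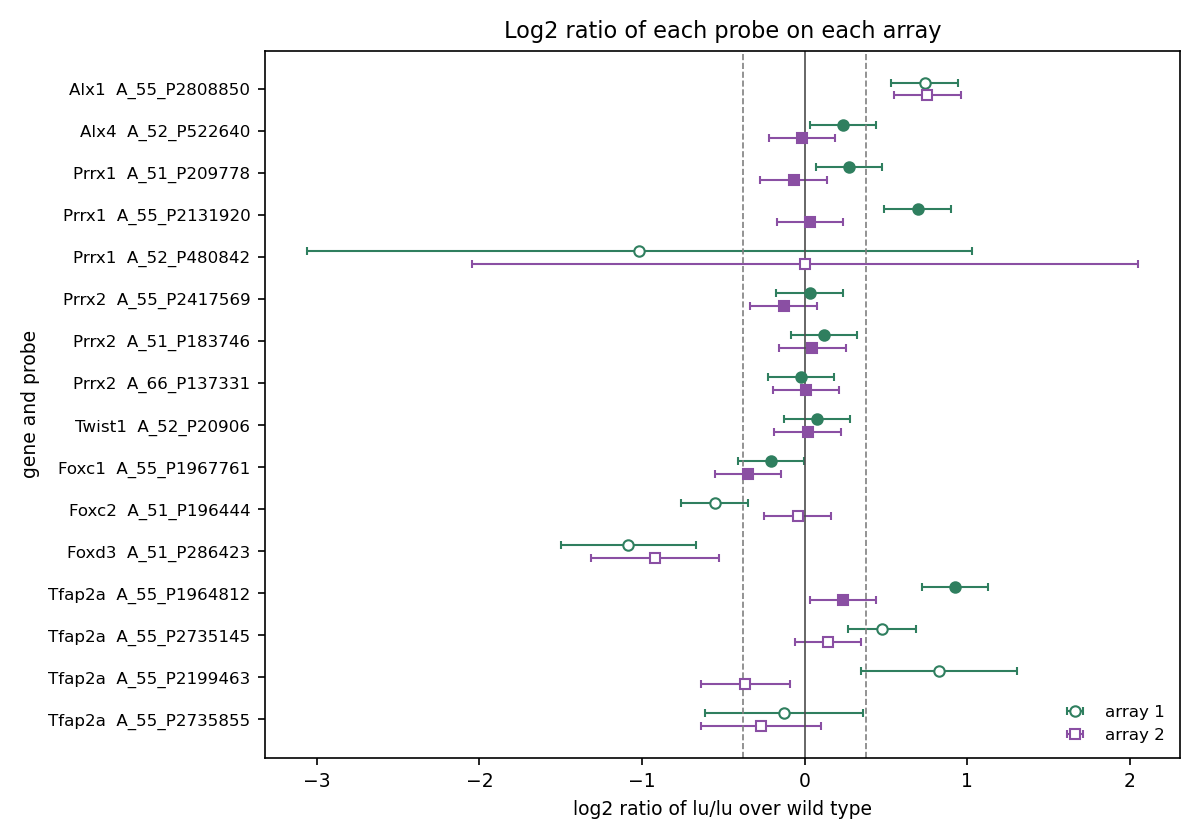
Log2 ratio of *Plzf* lu/lu over wild type (horizontal axis) for each of the 16 probes (vertical axis) on array 1 (circles) and array 2 (squares); bars give the error of the spot, combined from the scanner software's errors of both channels, dashed lines mark 1.3-fold, and filled symbols are probes that passed in all channels. The *Alx1* probe (higher) and the *Foxd3* probe (lower, near background) are beyond 1.3-fold on both arrays, and the 3 *Prrx2* probes lie near 0. Among filled symbols, the second *Prrx1* probe and the brightest *Tfap2a* probe are beyond 1.3-fold on array 1 alone. Some open symbols, such as *Foxc2* (lower), are too.

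The forkhead genes *Foxc1* and *Foxc2*, which lie on different chromosomes in clusters with other forkhead genes (*Foxq1* and *Foxf2* beside *Foxc1*, *Foxf1* and *Foxl1* beside *Foxc2*), had ratios below 1 on both arrays, although their means turned positive under that median centring (0.25 and 0.17 on the log2 scale, below the median gene). The signal of *Foxc1* was 796 and 759 in wild type and 690 and 595 in *Plzf* lu/lu. Both mutant values lay below both wild type values, with ratios of 0.866 on array 1 and 0.785 on array 2. The mean log2 ratio was -0.28 ± 0.08 (SE, limma; adjusted p = 0.107), lower in 2 of 2 arrays and short of 1.3-fold on each.

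*Foxc2* read 332 and 195 in wild type and 226 and 190 in *Plzf* lu/lu. Its ratio was 0.681 on array 1 and 0.970 on array 2, a mean log2 ratio of -0.30 ± 0.36 (SD, n = 2). The wild type channels of the arrays differed by 0.76 on the log2 scale, more than the genotypes did on either array, and the *Plzf* lu/lu channels by 0.25. Beside *Foxc2*, *Foxf1* had log2 ratios of -0.41 and 0.61, and *Foxl1* of -0.85 and -0.30, the last at signals below 60. Beside *Foxc1*, *Foxf2*, which did not pass, had -0.25 and 0.16.

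*Foxd3*, a forkhead gene of premigratory crest, gave signals near background. It read 15.4 and 13.5 in wild type and 7.28 and 7.11 in *Plzf* lu/lu, and the *Plzf* lu/lu spot on array 2 was not well above background. The log2 ratios were -1.08 and -0.92, with spot errors of 0.415 and 0.396. After the normexp background correction with loess, the mean log2 ratio was -0.20, so that the size of the ratio depended on how the background was taken off. Its signal did not allow a fold change to be stated.

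*Tfap2a*, the AP-2 alpha factor of crest and surface ectoderm, had the highest mean ratio of the 6 factors that passed, and also the widest spread. Its brightest probe read 326 and 446 in wild type and 619 and 525 in *Plzf* lu/lu. Both mutant values lay above both wild type values, but the ratio was 1.90 on array 1 and 1.18 on array 2. The mean log2 ratio was 0.58 ± 0.16 (SE, limma; adjusted p = 0.103), with an SD between the arrays of 0.485 compared with a median of 0.0844 over all passing genes.

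A second *Tfap2a* probe, close to the first, read 111 and 126 in wild type and 155 and 139 in *Plzf* lu/lu, ratios of 1.39 and 1.10. It gave the same order of the channels at lower signal. The remaining *Tfap2a* probes, both further upstream on the gene, stayed below 20 in every channel and disagreed in direction on array 1. The paralog *Tfap2b* behaved like the brighter *Tfap2a* probes, with log2 ratios of 0.99 on array 1 and 0.22 on array 2. *Tfap2c*, another paralog, gave -0.13 and 0.60, the reverse order of the arrays.

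For all 6 passing factors the ratio was higher on array 1 than on array 2, as it was for 53.6% of all passing genes. The median difference between the arrays was 0.206 on the log2 scale for the 6 factors and 0.0147 over all passing genes. Their median was 0.16 on array 1 and -0.04 on array 2. *Alx1*, *Foxc2* and *Foxd3* had the higher ratio on array 2.

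**Figure D3:**
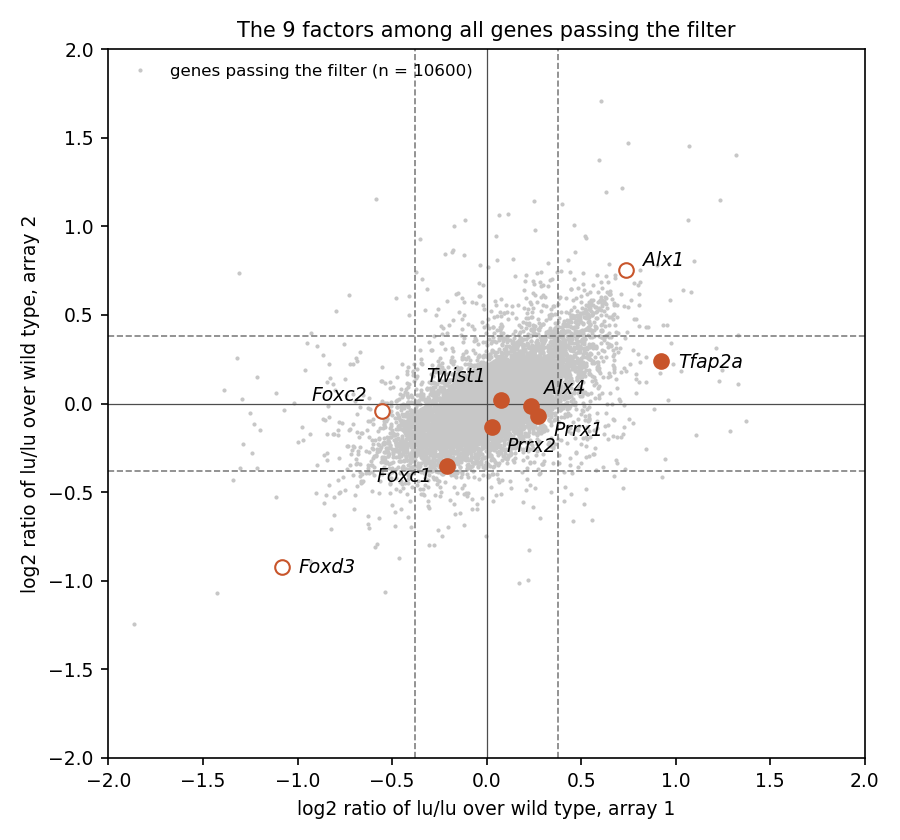
Log2 ratio of *Plzf* lu/lu over wild type on array 1 (horizontal axis) against array 2 (vertical axis) for the 10600 passing genes (gray; 3 lie outside the axes) and the 9 factors (filled, passed; open, not passed), with 1.3-fold dashed. *Alx1* (higher) and *Foxd3* (lower, near background) lie beyond 1.3-fold on both arrays. *Tfap2a* is at 0.92 on array 1 and 0.24 on array 2, and *Alx4*, *Prrx1*, *Prrx2* and *Twist1* lie between -0.13 and 0.27 on both.

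The factors were set beside other genes of the same cell types. Of 18 further crest genes, 10 passed, 0 were beyond 1.3-fold higher (2.58% of all passing genes) and 1 lower (0.736%), *Pax3*, a paired box factor of the dorsal neural tube and crest. This call was lost after normexp with loess or with median centring, and at 1.5-fold. *Pax3* read 497 and 583 in wild type and 377 and 360 in *Plzf* lu/lu, a mean log2 ratio of -0.55 ± 0.10 (SE, limma; adjusted p = 0.0574). The median of the 10 genes was 0.26 on array 1 and 0.06 on array 2. Among the 18 genes well above background, *Sox10*, which marks migrating crest, was also lower beyond 1.3-fold, from 80.9 and 90.2 in wild type to 61.8 and 57.6 in *Plzf* lu/lu. Of all genes well above background, 2.07% were lower and 2.52% higher. Of the 10 passing crest genes, 5 were above 1 on both arrays and 3 below. The share of all passing genes that kept their sign on both arrays was not taken, so this count is a description alone.

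Of 28 further genes of the head mesenchyme, 13 passed, of which 3 were higher beyond 1.3-fold (2.58% of all passing genes) and 0 lower (0.736%). With the GC trend removed, or with the mean over probes, 1 was higher, and at 1.5-fold 0 were. Over all passing genes, 231, 142 and 41 were higher in these settings. The 3 genes were the sine oculis homeobox gene *Six2*, its cofactor *Eya1* and the nuclear receptor gene *Nr2f2*. *Six2* rose from 2069 and 1597 in wild type to 2840 and 2395 in *Plzf* lu/lu by the 1.3-fold rule, with a mean log2 ratio of 0.52 ± 0.08 (SE, limma; adjusted p = 0.0518). *Eya1* (0.57 ± 0.07) and *Nr2f2* (0.57 ± 0.08) each had an adjusted p of 0.0510 in limma. Among the 24 genes well above background, 6 were higher beyond 1.3-fold (2.52% of all genes in that set), including *Osr2* and *Tbx15* at signals of 16.5 to 91.2, and 4 lower (2.07%), *Meox2*, *Tbx1*, *Tcf15* and *Dlx6*, at 10.4 to 218. The median of the 13 genes was 0.25 on array 1 and 0.05 on array 2.

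Of 9 matrix genes of the mesenchyme, 5 passed and 0 were beyond 1.3-fold on both arrays in either direction. Of all passing genes, 2.58% were higher and 0.736% lower, so 0 of 5 does not set these genes apart. The brightest were the collagen genes *Col1a2* (log2 ratios of 0.15 and 0.10) and *Col3a1* (-0.17 and -0.47). The median of the 5 genes was 0.03 on array 1 and -0.23 on array 2. In bulk RNA, fewer cells of a type and less RNA per cell cannot be told apart.

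Markers of other cells at the edge of the dissection differed between the arrays. The 12 surface ectoderm genes, of which 8 passed and 0 were beyond 1.3-fold on both arrays, had a median log2 ratio of 0.45 on array 1 and -0.24 on array 2. Of all passing genes, 2.58% were higher and 0.736% lower beyond 1.3-fold on both arrays. The summed signal of the 8 passing genes was 10253 in wild type and 14978 in *Plzf* lu/lu on array 1, and 14335 and 11215 on array 2. The keratin genes *Krt18* (0.69 and -0.34) and *Krt8* (0.46 and -0.67) had opposite signs on the arrays. *Tfap2a* was above 1 on both, and so was the ectoderm gene *Grhl3* (0.63 and 0.79), which did not pass. Among the 12 genes well above background, *Grhl3* was the 1 gene higher beyond 1.3-fold (2.52% of all genes in that set), and 0 were lower (2.07%). The ectoderm list and *Tfap2a* were both higher on array 1 than on array 2. The part of the ectoderm in the ratio of *Tfap2a* was not tested.

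The 6 erythroid genes, of which 5 passed and 0 were beyond 1.3-fold on both arrays, had a median of -0.90 on array 1 and 0.12 on array 2, with *Hbb-y* at -0.80 and 0.52 and *Hbb-bh1* at -0.85 and 0.12. The summed signal of the 5 passing genes was 465648 in wild type and 249772 in *Plzf* lu/lu on array 1, and 193825 and 236851 on array 2. The 4 passing endothelial genes of 10 were below 1 on both arrays, with medians of -0.43 and -0.74. Of these, *Emcn* and *Plvap* were lower beyond 1.3-fold (-0.65 ± 0.07 and -0.69 ± 0.09; SE, limma; adjusted p = 0.0510 for each). The shares over all passing genes were 0.736% lower and 2.58% higher, and 0 of the 4 were higher. *Foxc1*, which is also expressed around vessels, was below 1 in the same arrays, and whether it moved with the endothelium was not tested. All genes of these lists (12 ectodermal, 6 erythroid and 10 endothelial) were well above background in every channel. Under that filter, 6 of the 10 endothelial genes were lower beyond 1.3-fold (2.07% of all genes in the set) and 0 were higher (2.52%).

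The forebrain and midbrain neuroepithelium, the tissue aimed at, was represented by 12 genes, of which 10 passed. On both arrays, 3 were higher beyond 1.3-fold (2.58% of all passing genes) and 0 lower (0.736%). Among the 3 were *Sox2* (log2 ratios of 0.44 and 0.47) and *Otx2* (0.38 and 0.39). The median of the 10 was 0.15 on array 1 and 0.45 on array 2, the reverse order of the 6 factors. Of 7 hindbrain and posterior genes none passed. The probe of *Hoxb3* read 177 to 220. Whether the proportions of these tissues differed between the samples was not tested.

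**Figure D4:**
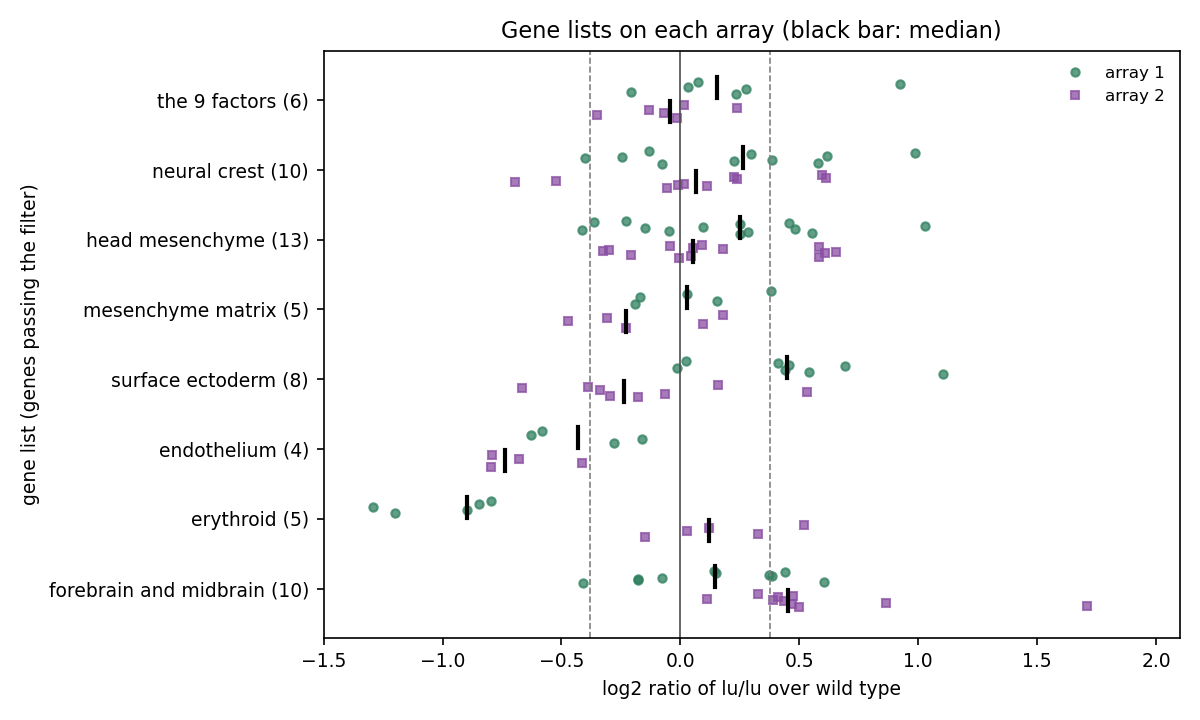
Log2 ratio of *Plzf* lu/lu over wild type (horizontal axis) of the passing genes of each list (vertical axis, number of genes in brackets) on array 1 (green circles) and array 2 (purple squares); black bars are medians and dashed lines mark 1.3-fold. The medians of the 6 passing factors are 0.16 and -0.04, the surface ectoderm has 0.45 and -0.24, the erythroid genes -0.90 and 0.12, and the neuroepithelium 0.15 and 0.45.

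For any single factor, the smallest p of an exact two-sided sign-flip test over 2 arrays is 0.5, and limma rests on the spread pooled over genes. The absence of a call for the 6 factors tested does not show that the genotypes were equal: the median SE of the mean log2 ratio over all passing genes was 0.0783, and the log2 ratio of *Foxc1*, at -0.28, did not reach an adjusted p of 0.05. No normalization between the arrays was applied, and the median gene differed between them by 0.0116 on the log2 scale in wild type and by 0.0346 in *Plzf* lu/lu.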

How the data were processed

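RNA of *Plzf* lu/lu (Cy5) and wild type (Cy3) E10.5 brain was compared on 2 two-color Agilent SurePrint G3 mouse arrays, and groups were taken from the labels. Each array held 59305 gene spots; 27.7% to 27.8% had a signal above 200, and the number of arrays limits the precision. The authors processed the scans with Feature Extraction 10.7.3.1; the deposited intensity values are background-subtracted and normalized between dyes within each array. The deposited log10 ratio is Cy5 over Cy3, and a second file of the authors gives it as log2 (within 0.005). The software's own error and p-value of each ratio are comparison columns and were not used; spot errors were combined from the deposited signal errors of both channels.

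Control and outlier spots were removed, replicate spots of 1 probe were averaged as log2, and the brightest probe stood for a gene. Log2 ratios were fitted with limma 3.58.1 (R 4.3.3; intercept, eBayes) over the 10600 genes with signal above 200 and signal-to-noise of at least 5 in all channels, with Benjamini-Hochberg adjustment. Each array pairs both genotypes. Tested on simulated data with 200 of 10600 genes changed by 1 on the log2 scale, limma recovered 97% to 100% of them, with a median of 6.99% false calls. The simulated spread was drawn from limma's own fit. The change was larger than that of any of the 6 passing factors (-0.28 to 0.58), so recovery at their size was not tested. Tables were made with Python 3.11.15, pandas 2.3.3 and matplotlib 3.10.9.

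The 9 members, the marker lists and the tests were chosen with earlier results of these data known. Named are all members with every probe, *Zbtb16*, the list genes beyond 1.3-fold on both arrays, and otherwise the 2 brightest genes of a list. Some genes that this rule selects, and the sequence of 1 probe, are not reported here. The paralogs and neighbors of members, *En1*, and the list genes beyond 1.3-fold among those well above background were named after their values were seen. All 9 members matched RefSeq genes (assembly GRCm38.p6), which was used for names and neighbors alone; it gave no coordinates here. Alternatives were normexp (offset 50) with loess or with median centring over all probes, centring on passing genes, the deposited log2 table, the wider filters and no filter, the mean over probes, no replicate block, eBayes with trend, removal of the GC trend (lowess, span 0.67), 1.5-fold, and each array left out.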

Additional observations from a re-analysis of the deposited data

How the results depend on the processing

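Normexp with median centring over all probes moved the median of all passing genes to 0.56 on the log2 scale and, with 6731 genes higher and 4 lower, shifted every list. Under it *Prrx2* (0.56), *Foxc1* (0.25) and *Foxc2* (0.17) reversed, 3 members were higher beyond 1.3-fold and 5 had an adjusted p under 0.05, 8 crest, 8 head mesenchyme and 2 matrix genes were higher and 0 crest genes lower, and the medians were 0.76 for crest, 0.58 for head mesenchyme and 0.37 for matrix. Relative to that shift, *Foxc1* stayed below and *Alx1* (1.10) above the median gene. The mean over probes reversed *Prrx1* (-0.0134) and *Prrx2* (0.0084) and gave 1 head mesenchyme gene higher and 1 matrix gene lower. Removing the GC trend reversed *Twist1* (-0.0312), moved *Alx4* from 0.11 to 0.03 and *Prrx1* from 0.10 to 0.18, and left 1 head mesenchyme gene higher. Normexp with loess gave 0 crest genes lower. At 1.5-fold, 0 crest genes were lower and 0 head mesenchyme genes higher. Over all 10600 passing genes, 41 were higher and 12 lower at 1.5-fold, and 285 and 70 under normexp with loess. With the GC trend removed these counts were 231 and 73, and with the mean over probes 142 and 112. Among genes well above background, 1 member (*Alx1*) and 6 head mesenchyme genes were higher and 2 crest and 4 head mesenchyme genes lower. Of all 23283 genes in that set, 2.52% were higher and 2.07% lower. With the filter in 1 channel, 1 member was higher, as were 2.78% of the 11079 genes tested. With no filter, 1 member (*Alx1*) was higher and 1 (*Foxd3*) lower, 2 crest genes were lower, 6 head mesenchyme genes were higher and 5 lower, with a median of -0.0548 for head mesenchyme. Of all 37071 genes then tested, 1695 were higher and 2173 lower.

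Leaving out 1 array gives values with no test. On 1 array, 0 to 1 members were higher beyond 1.3-fold (*Tfap2a* on array 1), 2 to 4 crest genes were higher and 1 to 2 lower, 0 to 1 head mesenchyme genes were lower, and 0 to 1 matrix genes were higher and 0 to 1 lower. Of all 10600 passing genes, 875 were higher and 592 lower on array 1, and 477 and 208 on array 2. The crest median ranged from 0.0644 to 0.2614. Without the replicate block, that is with the channels not paired by array, 0 genes had an adjusted p under 0.05 compared with 3, and no member changed its call. The 3 genes at an adjusted p under 0.05 became 600 with centring on the passing genes, 393 with eBayes trend, 168 with the GC trend removed, 9652 with normexp and median centring, 2 with the filter in 1 channel, and 0 with normexp and loess, the deposited log2 table, the mean over probes, the well above background filter and no filter; of these settings normexp with median centring alone called a member. The slide could not be fitted as a block, since both arrays lay on 1 slide. Over 10 settings of scaling, filter and probe, the mean log2 ratios of *Alx1* (0.71 to 1.10), *Alx4* (0.03 to 0.63), *Tfap2a* (0.23 to 1.02) and *Foxd3* (-1.04 to -0.20) kept their sign. Many of these settings could not change a sign. The filters reuse the main ratio, the deposited log2 table is that ratio rounded, and *Alx1*, *Alx4* and *Foxd3* have 1 probe each. On array 2 alone, *Alx4* was at -0.02. Signal over background limits *Foxd3* and the dim probes of *Prrx1* and *Tfap2a*. The causes of these shifts were not tested.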
